A study of Mus musculus with 4 samples.

Results

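Venous endothelial cells of mouse pancreatic islets were described from 52 cells among the 45709 barcodes of 4 single-cell libraries. The cells were chosen by the values themselves. A member had at least 500 genes, at most 20% mitochondrial UMIs (unique molecular identifiers, which count captured transcripts), at least 2 of the 7 endothelial genes Pecam1, Cdh5, Kdr, Flt1, Plvap, Egfl7 and Esam, no UMI of the leukocyte gene Ptprc, insulin (Ins1 and Ins2 together), glucagon (Gcg) and somatostatin (Sst) each below 3% of its UMIs, and at least 2 of the venous genes Selp, Ackr1 and Vwf. The same filters without the venous genes left 3730 other endothelial cells, which served for comparison.

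Islets of 8-week-old males had been dissociated, and every group was a single library. The Cre-positive library came from mice that carried Pdx1-Cre (cre+) with floxed alleles on both chromosomes of Tet2 and of Tet3, which encode TET enzymes, the oxidisers of methylated cytosine in DNA. The Cre-negative library (cre-) had the same Tet2(flox/flox) and Tet3(flox/flox) alleles without the recombinase. Pdx1-Cre is active in the pancreatic epithelium, from which endocrine cells derive, and not as a rule in endothelium. The other libraries came from offspring of mothers with intrauterine hyperglycemia (IHG) and from offspring of control mothers. How many mice were pooled for a library is not stated in the labels, and the islets had been cultured before digestion. The libraries held 10145 barcodes in the Cre-positive, 6421 in the Cre-negative, 12684 in the IHG offspring and 16459 in the control offspring library, with 52489846 to 109110492 UMIs each. Pairs of libraries shared 58 to 246 barcode sequences, and 2 of the 52 members had a barcode that also occurred in another library.

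Venules drain the islet capillaries and are the vessel segment at which leukocytes attach and leave the blood. P-selectin (Selp) is stored in Weibel-Palade bodies together with von Willebrand factor (Vwf), a carrier and adhesion protein of haemostasis, and is moved to the surface on stimulation, where it slows leukocytes. Ackr1 is an atypical receptor that carries chemokines across venular endothelium. E-selectin (Sele), Icam1 and Vcam1 are further adhesion molecules whose transcription is induced by inflammatory signals through NF-kB.

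The promoters of 3 adhesion genes are shown, that of Selp because its detection helped to choose the cells and those of Sele and Icam1 because the comparison of the Cre libraries describes them, for the 250 bases before the transcription start in RefSeq (GRCm38.p6, plus strand for each gene). Capitals mark matches to a loose form of the NF-kB site, 3 G followed by any 5 bases and 2 C, searched on both strands.
Selp, chr1:164115014-164115263: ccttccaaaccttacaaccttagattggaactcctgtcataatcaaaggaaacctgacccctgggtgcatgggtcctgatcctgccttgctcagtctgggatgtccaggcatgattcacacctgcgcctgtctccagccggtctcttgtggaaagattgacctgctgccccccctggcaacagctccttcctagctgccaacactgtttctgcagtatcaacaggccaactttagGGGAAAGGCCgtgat
Sele, chr1:164047984-164048233: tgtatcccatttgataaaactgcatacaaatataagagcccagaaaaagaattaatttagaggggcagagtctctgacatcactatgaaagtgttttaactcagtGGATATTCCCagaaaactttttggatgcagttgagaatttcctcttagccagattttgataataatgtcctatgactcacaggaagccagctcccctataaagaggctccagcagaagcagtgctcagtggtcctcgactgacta
Icam1, chr9:21015690-21015939: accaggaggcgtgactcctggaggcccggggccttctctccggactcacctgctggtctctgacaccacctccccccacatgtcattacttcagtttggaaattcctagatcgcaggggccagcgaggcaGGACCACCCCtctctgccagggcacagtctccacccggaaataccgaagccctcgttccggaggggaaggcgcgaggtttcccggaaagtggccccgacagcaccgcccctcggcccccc
Each of the 3 windows held 1 match, and 45.4% of 27025 promoter windows of the same length held at least 1, so a match is a description of the letters and no more.

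The members were spread unevenly over the libraries. There were 41 of 1737 endothelial cells in the Cre-positive library, 9 of 229 in the Cre-negative library, 2 of 767 in IHG offspring and 0 of 1049 in control offspring. As shares with exact Clopper-Pearson 95% intervals, these were 2.36% (1.70 to 3.19) in the Cre-positive, 3.93% (1.81 to 7.33) in the Cre-negative and 0.261% (0.0316 to 0.939) in the IHG library, and 0 of 1049 cells in control offspring (exact upper limit 0.351%) allows a share of up to 0.286% by the limit of 3 cells. The 2 Cre libraries overlapped in their intervals and lay above both offspring libraries. The intervals cover counting error only, and with 1 library per group the difference between libraries has no replicate check. As a background for free RNA, among insulin-rich cells with none of the 7 endothelial genes, 0 of 2256 Cre-positive, 0 of 2560 Cre-negative, 0 of 5492 IHG and 0 of 10325 control cells had 2 of the 3 venous genes, at median depths of 5977 to 10128 UMIs against 2071 to 2527 UMIs in endothelial cells.

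Just outside the threshold, 22 Cre-positive, 9 Cre-negative, 5 IHG and 7 control cells had exactly 1 of the 3 venous genes. Just inside it, 14 Cre-positive, 4 Cre-negative and 2 IHG members had exactly 2, and 27 Cre-positive and 5 Cre-negative members had all 3. No IHG or control cell had all 3. Cells with 1 venous gene had 199, 182, 0 and 0 CPM (counts per 1000000 UMIs of the summed cells) of the water channel gene Aqp1 in the Cre-positive, Cre-negative, IHG and control libraries, between the levels of members and of other endothelial cells in the Cre libraries. Of the 130765 UMIs of the 22 Cre-positive cells, 68219 lay in 1 cell, so their summed level depends on that cell.

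Genes outside the choice were counted in the same way. Cells with at least 2 of Aqp1, Lrg1 and Tmem252, picked after their values were seen, were 45 of 1737 in the Cre-positive, 12 of 229 in the Cre-negative, 4 of 767 in the IHG and 1 of 1049 in the control library, or 2.59%, 5.24%, 0.522% and 0.0953%. Of these, 34 Cre-positive, 8 Cre-negative and 1 IHG cells were members, so the order of the libraries is no separate check of the shares above.

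**Figure D1:**
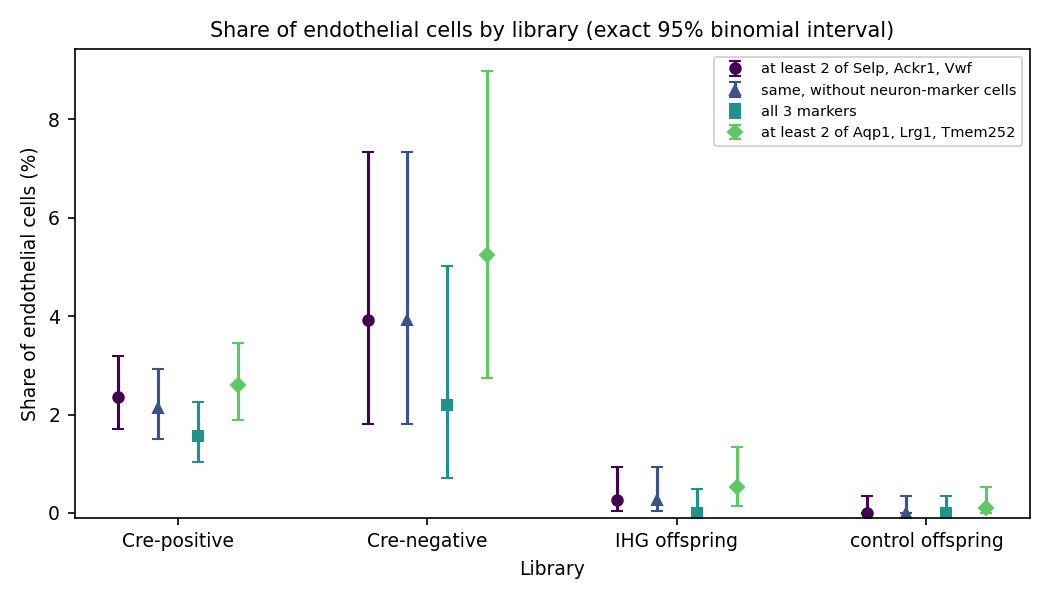
Share of endothelial cells (%) in each library, by 4 definitions, with points for the share and bars for the exact 95% binomial interval (counting error only). By the chosen rule the Cre-positive and Cre-negative shares were 2.36% and 3.93%, against 0.261% in IHG offspring and 0% in control offspring. The Cre-positive share was 2.14% without the 4 neuron-marker cells described below. Cells chosen by Aqp1, Lrg1 and Tmem252 gave the same order, but these genes were picked from the members' own values, so this is no separate check.

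Before any result on expression, 4 of the 41 Cre-positive members went against the label. They held 29346 to 65205 UMIs each, against 800 to 11576 in the other 37, and 218 to 573 UMIs of a list of glial and neuron markers, against 0 or 1 in the 37. Their 7 endothelial genes came to 2 to 4 UMIs per cell, against 6 to 164 in the other 37. They lacked Selp and passed on 2 to 5 UMIs of Ackr1 and 1 or 2 of Vwf. Their leading genes were Vip and Npy, which encode neuropeptides, with 1005 and 723 UMIs over the 4 cells, and Tubb3 and Prph, which encode a neuronal tubulin and the filament protein peripherin, with 576 and 556 UMIs. The other 37 Cre-positive members, the 9 Cre-negative members and the 2 IHG members held 0 UMIs of Vip, Npy and Prph, and 1 UMI of Tubb3 in all. Cells with Vip also stood among the other endothelial cells of the Cre-positive library, 16 of 1696 with 493 UMIs.

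These 4 cells are named below the neuron-marker cells, by the rule that their neuron-list UMIs outnumber those of the 7 endothelial genes, which was set after the values were seen. Without them the Cre-positive share was 37 of 1733 endothelial cells, or 2.14% (1.51 to 2.93). The 4 cells carried 58.2% of the 289370 UMIs of the Cre-positive members, so levels for the 37 cells are given beside those for all 41 for the main genes. All 8 genes with the largest excess in the 41 Cre-positive over the 9 Cre-negative members (Vip, Uchl1, Npy, Ppy, Tubb3, Prph, Tuba1a and Rtn1) had most of their UMIs in the 4 cells. Scrublet, a caller of doublets, marked 0 of the 52 members.

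**Figure D2:**
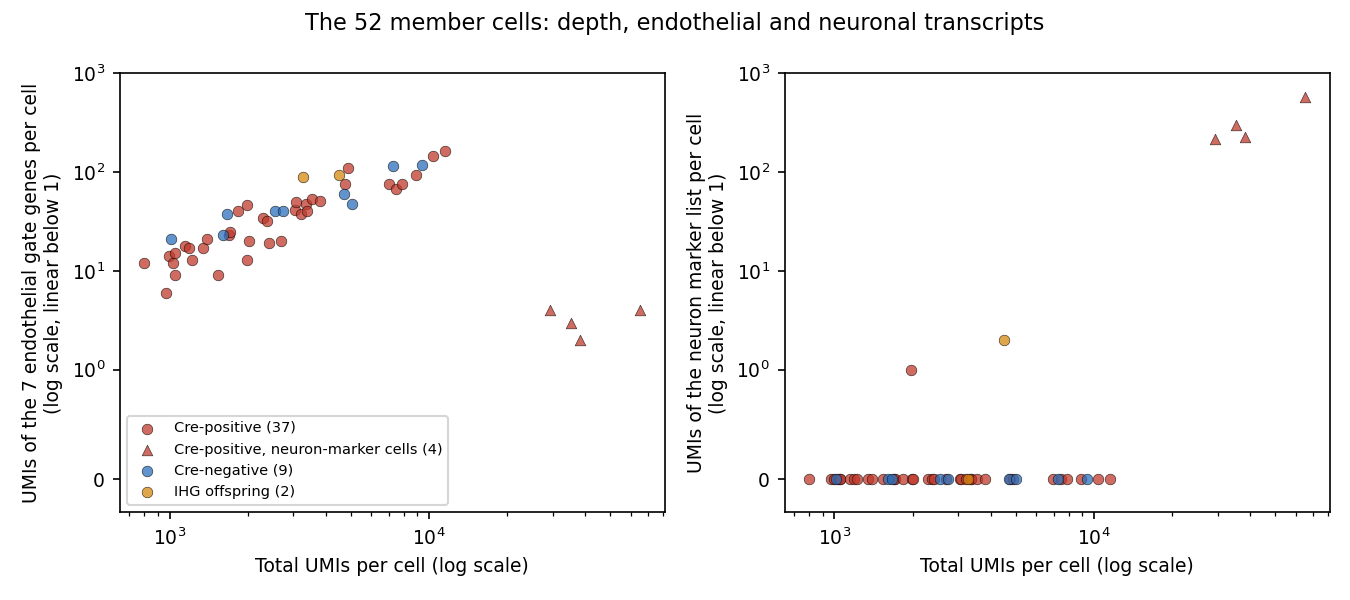
Each point is a member cell, with total UMIs on the horizontal axis (log scale) and, on the vertical axis, UMIs of the 7 endothelial genes (left) or of the neuron marker list (right). The 4 triangles lie at 29346 UMIs or more, with 2 to 4 endothelial UMIs, apart from the 48 circles.

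The label was checked against the markers in the remaining 48 cells. Selp had 1 to 100 UMIs per cell, with a median of 16, in the 37 Cre-positive members, against 0 to 2 with a median of 1 in the 9 Cre-negative members, and 1 and 2 in the 2 IHG members. Ackr1 was detected in 33 of 37 Cre-positive, 7 of 9 Cre-negative and 0 of 2 IHG members. Vwf was detected in 31 of 37 Cre-positive, 9 of 9 Cre-negative and 2 of 2 IHG members. As summed levels, Selp had 7256 CPM in the 37 cells (3034 CPM in all 41), 250 CPM in Cre-negative and 386 CPM in IHG members. These values chose the cells and are a description. Plvap, the diaphragm protein of fenestrated endothelium, was present in all 48, with 2 to 82 UMIs.

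Marker lists of other cells were summed in the 48 cells. The lymphocyte, ductal and erythroid lists had 0 UMIs in the members of every library, and the acinar list had 1 UMI. The platelet and megakaryocyte list, which bears on Selp and Vwf because platelets hold both proteins, had 2 UMIs in Cre-positive, 1 in Cre-negative and 3 in IHG members, of 13 genes. The lymphatic list had 66.1, 27.8 and 0 CPM in Cre-positive, Cre-negative and IHG members, against 268 to 620 CPM in other endothelial cells. Pericyte and smooth muscle genes summed to 934 CPM in Cre-positive members (8 of 12 genes detected) and 83.4 CPM in Cre-negative members (1 of 12), against 1498 and 432 CPM in other endothelial cells of those libraries. Hormone-cell lists were detected in members and in other endothelial cells. The beta-cell list summed to 4653, 2501 and 1157 CPM in Cre-positive, Cre-negative and IHG members, against 4024 to 8194 CPM, and the alpha-cell list to 2694, 639 and 771 CPM, against 638 to 3785 CPM. The macrophage list summed to 132, 111 and 0 CPM, with 2 of 11 genes detected, against 19.8 to 103 CPM. The polypeptide-cell list summed to 752, 278 and 0 CPM in Cre-positive, Cre-negative and IHG members, against 8692, 21254 and 9089 CPM in other endothelial cells of those libraries, and in the test of members described below Ppy and Pyy, 2 of its 2 tested genes, fell (median log2 fold change -4.49). The delta-cell list summed to 934, 445 and 257 CPM in Cre-positive, Cre-negative and IHG members, against 830, 1201 and 494 CPM, and the fibroblast list to 82.6, 55.6 and 257 CPM, against 127, 273 and 68.5 CPM. The neutrophil and mesothelial lists had at most 2 UMIs in the members of any library. The part of any of these in the results was not tested.

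The 2 IHG members differed from the Cre members. One held 23 UMIs of Esm1 and 11 of Igfbp3, genes of islet capillaries, with 0 of Aqp1 and Lrg1. The other held 14 UMIs of the capillary gene Rgcc beside 3 of Aqp1, 2 of Lrg1 and 4 of Nr2f2. Each had 22 or 23 UMIs of the VEGF receptor Kdr, whereas the median was 2 in Cre-positive and 2 in Cre-negative members.

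Members were somewhat deeper than other endothelial cells. Median UMIs per cell were 2414 against 2063 in the Cre-positive library, 2728 against 2508 in the Cre-negative and 3889 against 2204 in the IHG library. The ratio of members to other cells, as a geometric mean over the 3 libraries, was 1.31, higher in 3 of 3 libraries (exact two-sided sign-flip test over n = 3 libraries, p = 0.25, the smallest p that 3 libraries allow).

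Next, the members were set against the other endothelial cells of the same libraries. Members of all 3 libraries had more Aqp1, Lrg1 and Tmem252, in the IHG library on 3, 2 and 1 UMIs that all lay in 1 of the 2 cells. Members of the Cre libraries held few or no UMIs of the capillary genes Btnl9, Esm1 and Igfbp3, whereas the 2 IHG members held Esm1 and Igfbp3 within the range of other endothelial cells. UMIs were summed per library and cell class and tested over 8100 genes with edgeR's quasi-likelihood test, with the library as a block and Benjamini-Hochberg adjustment over all 8100. The genes of the choice, Ptprc, the hormones and mitochondrial genes were not tested, and the fit had 2 residual degrees of freedom. It called 27 genes higher (0.333% of those tested) and 61 lower (0.753%). DESeq2 called 33 higher and 31 lower on the same sums. Among the members with all 3 venous genes, which excludes the 4 neuron-marker cells and both IHG cells and leaves 1 residual degree of freedom, the test called 113 higher (1.13% of 10016) and 129 lower (1.29%), and these included 15 of the 27 and 52 of the 61.

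Aqp1, which encodes a water channel of the endothelial membrane (chromosome 6, 55336432 to 55348555 in GRCm38), had 1538 CPM in Cre-positive (3644 CPM in the 37 cells), 4836 CPM in Cre-negative and 386 CPM in IHG members, against 20.3, 24.2, 14.2 and 6.37 CPM in the other endothelial cells of the Cre-positive, Cre-negative, IHG and control libraries. The lowest member level lay above the highest level of other cells. The log2 fold change was 6.0 ± 0.79 (SE; edgeR adjusted p = 2.01e-10), and 7.30 ± 0.56 in members with all 3 venous genes (adjusted p = 2.17e-34). Aqp1 was detected in 36 of the 37 Cre-positive cells and in all 9 Cre-negative members, against 33 of 1696 and 8 of 220 other cells.

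Lrg1, a secreted glycoprotein with angiogenic action in vessels (chromosome 17, 56119678 to 56122001), had 691 CPM in Cre-positive (1653 CPM in the 37 cells), 1084 CPM in Cre-negative and 257 CPM in IHG members. Other endothelial cells had 19.0, 11.5, 23.1 and 11.1 CPM in the Cre-positive, Cre-negative, IHG and control libraries, so the classes did not overlap. Its log2 fold change was 4.87 ± 0.78 (edgeR adjusted p = 8.04e-07). Lrg1 passed the filter on low counts only through the members, so its test leaned to a rise. Tmem252, a membrane protein of little known function, had 117 CPM in Cre-positive (281 CPM in the 37 cells), 556 CPM in Cre-negative and 129 CPM (1 UMI) in IHG members, against 3.02 to 17.8 CPM in other cells. Its log2 fold change was 4.55 ± 0.81 (edgeR adjusted p = 1.73e-05), and at its low level in other cells it passed the filter on low counts through the members.

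The remaining named genes that rose in members were Masp1, Mctp1, Rasa4, Fbln2, Bgn and Cd9, besides Vamp1 and Tm7sf2. Masp1, a serine protease of the lectin pathway of complement, had a log2 fold change of 5.21 ± 0.78 (edgeR adjusted p = 5.69e-08) but rested on 6, 4 and 1 UMIs in Cre-positive, Cre-negative and IHG members. Its adjusted p was 0.0533 among members with all 3 venous genes. At 0.335 to 2.83 CPM in other endothelial cells, Masp1 passed the filter on low counts only through the members, so its test leaned to a rise. Mctp1, a calcium-binding membrane protein, rose by 4.25 ± 0.73 on the log2 scale and Rasa4, a GTPase-activating protein for Ras, by 3.00 ± 0.77 (edgeR adjusted p = 4.91e-06 and 0.0146). Each had 1 UMI in IHG members. Mctp1, at 0.472 to 12.7 CPM in other cells, and Rasa4, at 7.04 to 26.8 CPM, also passed the filter only through the members. Their tests leaned to a rise as well. Vessel wall genes were among the named genes that rose. Fbln2, an extracellular matrix glycoprotein, had 276 CPM in Cre-positive (661 CPM in the 37 cells), 1167 CPM in Cre-negative and 514 CPM in IHG members, against 11.1 to 126 CPM in other cells (log2 fold change 2.61 ± 0.66, edgeR adjusted p = 0.0134). Bgn, the proteoglycan biglycan, rose by 2.41 ± 0.68 (edgeR adjusted p = 0.0415), a call lost with no library block (adjusted p = 0.241) and without the Cre-positive (0.0538), Cre-negative (0.224) or IHG library (0.165). Without the Cre-positive library 17 of 22 named genes lost their call, Rasa4 (0.41), Fbln2 (0.2) and Esm1 (0.6) among them, and Aqp1, Lrg1, Tmem252, Mctp1 and Btnl9 kept it.

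Vamp1 and Tm7sf2 were called higher through the neuron-marker cells, with 128 and 13 UMIs in the 4 cells and 0 and 0 in the other 37. Cd9, a tetraspanin, had 445 of its 519 Cre-positive UMIs in the 4 cells. Its log2 fold change was 2.23 ± 0.63 (edgeR adjusted p = 0.0438) over all members and 1.25 ± 0.44 (adjusted p = 0.126) among members with all 3 venous genes.

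Some genes of islet capillaries fell. Esm1, a secreted proteoglycan of VEGF-stimulated capillaries, had 0 UMIs in Cre-positive and 0 in Cre-negative members, and 2957 CPM, all in 1 cell, in IHG members, against 2085, 1409, 3727 and 4069 CPM in other endothelial cells of the Cre-positive, Cre-negative, IHG and control libraries. With a floor of 3 UMIs over the 37 cells, Esm1 was at least 84.1-fold lower in Cre-positive members. The edgeR adjusted p was 3.62e-06, and 0.255 with no library block. Btnl9, a butyrophilin-like membrane protein, had 13.8 CPM in Cre-positive (33.1 CPM in the 37 cells), 0 in Cre-negative and 257 CPM in IHG members, against 1327 to 1718 CPM in other cells, with a log2 fold change of -6.06 ± 0.87 (edgeR adjusted p = 1.15e-08). Both Cre libraries were low, and the IHG members, at 2 UMIs, held more than either.

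Of 31 capillary-list genes outside the choice, 28 were tested, 8 fell, 0 rose and 20 did not pass. The 4 with the smallest p were Btnl9, Igfbp3, Esm1 and Car4. Igfbp3, a carrier of insulin-like growth factors, had 13.8 CPM in Cre-positive (33.1 CPM in the 37 cells), 55.6 CPM in Cre-negative and 1671 CPM in IHG members, against 1636 to 3104 CPM in other cells (log2 fold change -4.83 ± 0.81, edgeR adjusted p = 3.61e-06). Car4, the membrane carbonic anhydrase, fell by 5.10 ± 0.97 on the log2 scale (edgeR adjusted p = 0.000109). The list's median log2 fold change was -1.51, beside -0.29 over all genes tested. Among members with all 3 venous genes, 11 fell and 1 rose of 30 tested, beside 1.29% lower and 1.13% higher over all genes.

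**Figure D3:**
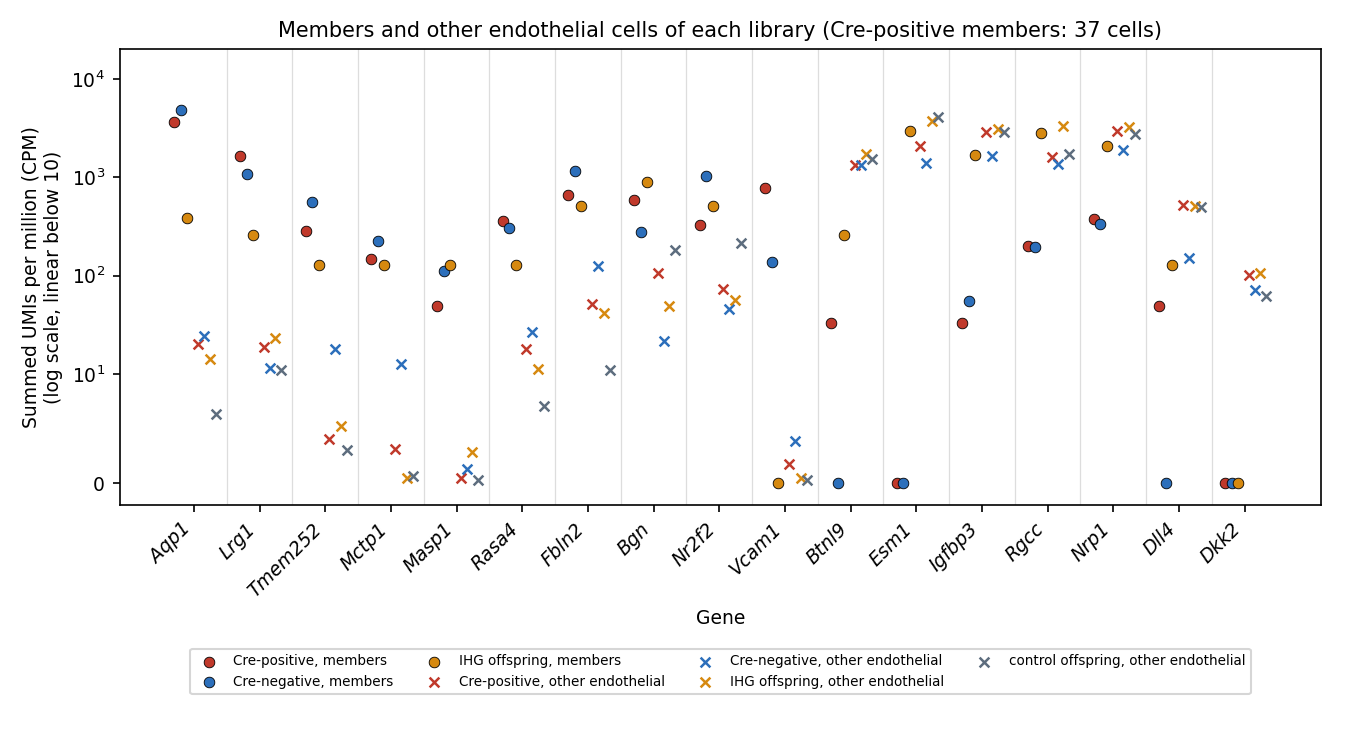
Summed CPM (log scale, linear below 10) of 17 genes in members (circles) and other endothelial cells (crosses) of each library. Cre-positive members are the 37 cells without the neuron-marker cells. Aqp1 and Lrg1 lie above all other endothelial cells in each of the 3 libraries with members, in IHG members on 3 and 2 UMIs. Esm1 and Igfbp3 lie low in the Cre members and high in the 2 IHG cells.

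Of the other named genes that fell, 8 had 0 UMIs in every member library, and for them only a bound can be given. Dkk2, a modulator of Wnt signalling, was at 0, against 62.4 to 107 CPM in other cells, and at least 4.13-fold lower in the 37 Cre-positive cells (edgeR adjusted p = 0.00315), but its adjusted p was 0.143 in cells thinned to 2000 UMIs. The like bound was 2.32-fold for Tmem26, 2.27-fold for Emid1, 2.02-fold for Lrrc8d, 1.88-fold for Tiam1, 1.82-fold for Xpc and 1.57-fold for Bmp6, a BMP ligand of endothelium. None of these 6 was called by DESeq2 (adjusted p = 0.104 to 0.175), in thinned cells (0.303 to 0.376) or among members with all 3 venous genes (0.0639 to 0.17), and 0 UMIs in the 9 Cre-negative members set no bound above 1 for them or for Dkk2. The haemoglobin gene Hbb-bs was also at 0, against 599, 1.27, 299 and 390 CPM in other cells. There it lay in 36 of 1696 Cre-positive, 1 of 220 Cre-negative, 13 of 765 IHG and 13 of 1049 control cells, and DESeq2 did not call it (adjusted p = 0.971). Hilpda, a lipid droplet protein, and Ifit2, an interferon-stimulated gene, had 1 UMI each, in a neuron-marker cell (edgeR adjusted p = 0.0025 and 0.0405). Hilpda had an adjusted p of 0.061 in thinned cells and Ifit2 one of 0.287 by DESeq2.

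Venous genes beyond the choice were counted. Of 26 in the list, 19 passed the filter on low counts, 4 rose (Lrg1, Tmem252, Bgn and Cd9) and 2 fell (Ramp3, a modifier of peptide receptors, and Dkk2). The median was 0.91, beside -0.29 over all genes. Among members with all 3 venous genes, 11 of 21 tested rose and the same 2 fell, beside 1.13% higher and 1.29% lower over all genes. The 11 included Vcam1 (log2 fold change 8.07 ± 0.66, edgeR adjusted p = 5.73e-30), which had not passed the filter over all members. Vcam1 had few UMIs in other endothelial cells of the Cre libraries. There it reached the filter's level only in the members, so its test leaned to a rise. In the test over all members, Lrg1 and Tmem252 likewise passed the filter only through the members. Nr2f2, the transcription factor COUP-TFII that specifies venous identity, had 138 CPM in Cre-positive (331 CPM in the 37 cells), 1028 CPM in Cre-negative and 514 CPM in IHG members, against 73.8, 45.9, 56.7 and 217 CPM in other cells. It did not pass over all members (2.35 ± 0.71, edgeR adjusted p = 0.0693) and rose by 2.69 ± 0.47 among those with all 3 venous genes (adjusted p = 2.79e-06).

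Arterial genes gave 1 higher and 3 lower of 24 tested. Edn1, the vasoconstrictor endothelin-1, rose (2.91 ± 0.79, edgeR adjusted p = 0.0265), while the Notch ligand Dll4, the semaphorin Sema3g and the receptor Notch4 fell (edgeR adjusted p = 0.000484, 0.0186 and 0.0471). Receptors and targets of VEGF gave 0 higher and 4 lower of 18 tested (Esm1, Flt4, Dll4 and Nrp1). Nrp1, a VEGF co-receptor, had 266 CPM in Cre-positive (372 CPM in the 37 cells), 334 CPM in Cre-negative and 2057 CPM in IHG members, against 1897 to 3248 CPM in other cells. Basement membrane and matrix genes gave 2 higher (Fbln2 and Bgn) and 3 lower (the laminin chain Lamb1, Timp3 and Nid2) of 23 tested. Interferon-stimulated genes gave 0 higher and 2 lower (Rsad2 and Ifit2) of 28 tested.

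Lists of leukocyte adhesion (21 tested), chemokines and cytokines (7), NF-kB and interleukin-1 or TNF response (25), antigen presentation (18), immediate early and flow genes (24) and TET and DNMT enzymes (9) had 0 genes past the threshold over all members by edgeR and 0 by DESeq2. At an unadjusted edgeR p under 0.05 there were 6, 2, 4, 2, 4 and 1 genes in these lists in that order. These counts join both directions and have no share over all tested genes beside them, so they are no result about the lists. Among members with all 3 venous genes the adhesion list had 3 higher (Vcam1, Icam1 and B3gnt3) and 2 lower of 23 tested, and the chemokine list 4 higher (Cxcl1, Cxcl10, Csf1 and Cxcl12) of 9. Over all genes that fit called 1.13% higher and 1.29% lower. The list medians were 0.09 and 1.72 in that order, beside -0.51 over all genes. Genes with few UMIs in other cells, Vcam1 among them, could enter that fit through the members, which leans these counts to rises. Of the haemostasis list, the plasminogen activator Plat fell over all members (edgeR adjusted p = 0.0439), and Procr, the protein C receptor, rose among those with all 3 venous genes (3.14 ± 0.56, adjusted p = 3.82e-06).

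The targeted genes were read first for the comparison of the Cre libraries. Tet2 had 3 UMIs in the 37 Cre-positive members (24.8 CPM), 3 in the 4 neuron-marker cells, 2 UMIs in Cre-negative members (55.6 CPM) and 1 in IHG members. In other endothelial cells it had 21.4, 51.0, 29.8 and 36.9 CPM in the Cre-positive, Cre-negative, IHG and control libraries. Tet3 had 5 UMIs in the 37 Cre-positive (41.3 CPM), 2 in Cre-negative (55.6 CPM) and 1 in IHG members, against 60.2, 63.7, 74.6 and 77.5 CPM in other cells. At these counts a difference between members was not detectable. The libraries count 3′ ends, and no label says whether those lie within the deleted exons, so the levels do not check the deletion.

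Cre-positive and Cre-negative members were compared as 1 library against 1, with no test. Cre-positive venous cells held many more transcripts of the adhesion genes Icam1, Vcam1 and Sele and fewer of Klf2, Fos and Nr2f2. For genes with at least 100 CPM in either library, the ratio of CPM is given with an exact 95% interval that covers counting error only. Over all 41 Cre-positive members, 660 of 2947 genes lay 2-fold or more above (22.4%) and 1039 lay 2-fold or more below (35.3%). Median-of-ratios scaling gave 1010 higher and 649 lower. Over the 37 cells, 453 of 2621 lay above (17.3%) and 770 below (29.4%) by that rule, with a median log2 ratio over all genes of -0.26, and the same scaling gave 601 and 605. A share of 2-fold differences near these backgrounds is no result about a list. With 41 cells the 4 neuron-marker cells dilute each endothelial gene, and ratios below are for the 37 cells.

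Among adhesion genes, Icam1, the ligand of leukocyte integrins (chromosome 9, 21015985 to 21028817), had 3074 CPM in Cre-positive members (372 UMIs in 37 of 37 cells; 1292 CPM over all 41), against 278 CPM in Cre-negative members (10 UMIs in 4 of 9 cells). That is 11.1-fold higher (5.95 to 23.3). In other endothelial cells of the same libraries Icam1 had 410 and 47.1 CPM, 8.69-fold higher (6.28 to 12.4) in the Cre-positive library, so the intervals of the ratio overlapped between the classes. In offspring the other endothelial cells had 181 CPM in the IHG and 394 CPM in the control library. Vcam1, a ligand of lymphocyte and monocyte integrins, had 769 CPM in Cre-positive (27 of 37 cells) and 139 CPM in Cre-negative members (4 of 9 cells), 5.53-fold higher (2.29 to 17.4), and 8 and 3 UMIs in other endothelial cells of those libraries.

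Sele, whose promoter is among those printed, had 66 UMIs in 26 of 37 Cre-positive members and 0 in the 9 Cre-negative members, at least 6.54-fold higher with a floor of 3 UMIs over the 9 cells. In other endothelial cells it had 1 UMI in the Cre-positive, 0 in the Cre-negative, 0 in the IHG and 1 in the control library. Selp, whose detection chose the cells, had 878 UMIs in the 37 Cre-positive members and 9 in the Cre-negative members, and is given as a description only. Ackr1 had 2049 and 945 CPM, and Vwf 876 and 1112 CPM, in Cre-positive and Cre-negative members.

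Of 18 measured genes of the adhesion list, 5 passed 2-fold as higher (Sele, Icam1, Vcam1, Podxl and Msn) and 4 as lower (Madcam1, B3gnt3, Cav1 and Cavin2). The list's median log2 ratio was -0.29, beside -0.26 over all genes. With all 41 cells, 4 were higher and 10 lower of 18. Cytokine genes were seen in the same library. Il6, Csf3 and Cxcl10 had 35, 24 and 29 UMIs in 14, 11 and 12 of the 37 Cre-positive members and 0 in Cre-negative members, at least 3.47-, 2.38- and 2.87-fold higher. Of 10 measured chemokine and cytokine genes, 5 were at least 2-fold higher and 2 lower in the 37 cells, and 1 higher and 4 lower of 8 in all 41.

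The other genes with the largest excess in Cre-positive members were Adamts4, Rgs5, Tm4sf1, Sqstm1 and Lmna. Adamts4, a protease of matrix proteoglycans, had 252 UMIs in 35 of 37 Cre-positive and 1 UMI in Cre-negative members, a ratio of 74.9 (13.3 to 2971), and 92.8 and 2.55 CPM in other endothelial cells. Tm4sf1, a tetraspan protein of endothelial projections, was 8.48-fold higher in Cre-positive members (5.38 to 14.2), while in other endothelial cells the ratio was 0.992 (0.928 to 1.06). Sqstm1, an autophagy receptor, was 11.8-fold higher (4.99 to 36.8), against 3.84-fold in other cells, and Lmna, which encodes lamin A, 13.1-fold higher (4.38 to 64.2), against 8.05-fold. Rgs5, a regulator of G-protein signalling and a pericyte marker, had 81 UMIs in 19 Cre-positive members and 0 in Cre-negative members. The pericyte list had 934 and 83.4 CPM, but Rgs5 belongs to it and made 81 of its 113 UMIs in the 37 cells, so the list is no separate observation. The part of pericyte transcripts in the result was not tested.

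Among the lowest ratios were those of Klf2, the shear-induced factor that keeps endothelium quiescent, and immediate early genes. Klf2 had 264 CPM in Cre-positive members (128 CPM over all 41) and 3141 CPM in Cre-negative members, where all 9 cells held it. It was detected in 13 of the 37. Klf2 was thus 11.9-fold lower (7.96 to 18.2), and in other endothelial cells 2.52-fold lower (2.32 to 2.74). Fos, a stimulus-induced transcription factor, was 7.07-fold lower (5.27 to 9.56), and 3.80-fold lower in other cells. Ccn1, a matrix protein of early response genes, and Tsc22d3, a glucocorticoid target, were 11.4-fold (5.02 to 28.9) and 9.81-fold lower (4.97 to 20.8). Of 22 measured genes of the immediate early and flow list, 11 were at least 2-fold lower and 2 higher, with a median of -0.78. Over all 41 cells these were 17 lower and 1 higher. In other endothelial cells 4 were lower and 3 higher of 22, beside 157 lower and 263 higher of all 2297 genes measured there. The 2 higher genes in the 37 cells were Fosb and Fosl2, at 7.43-fold (3.98 to 15.7) and 2.86-fold (1.61 to 5.52).

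Some of the lowest ratios rested on few cells. The 11 UMIs of Prnd lay in 1 Cre-negative cell, as did all 9 of Top2a, a gene of dividing cells, and that library's members also held 5 UMIs of the proliferation gene Mki67 in 1 cell. Ttc14 and Lgals8 had 6 UMIs each in 5 of 9 Cre-negative members and 0 in the 37 Cre-positive members. Adamts18, Depp1, D16Ertd472e and Aplnr, the apelin receptor of venous endothelium, which were among the 8 lowest with all 41 cells, had 0, 4, 4 and 4 UMIs in the 37 cells and 6, 14, 13 and 13 in Cre-negative members.

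Of 20 measured genes of the venous list, 4 were at least 2-fold higher (Sele, Vcam1, Icam1 and Bgn) and 3 lower (Nr2f2, Ephb4 and Aplnr). Nr2f2 had 331 CPM in Cre-positive and 1028 CPM in Cre-negative members, 3.11-fold lower (1.93 to 4.99), whereas in other endothelial cells it was 1.61-fold higher (1.14 to 2.34). Lrg1 had 1653 and 1084 CPM, a ratio of 1.52 (1.08 to 2.21). Over all genes 17.3% were higher and 29.4% lower in the 37 cells, so 4 and 3 of 20 are no result about the list. Its median log2 ratio was -0.14, beside -0.26 over all genes. With all 41 cells, 4 were higher and 12 lower of 20.

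**Figure D4:**
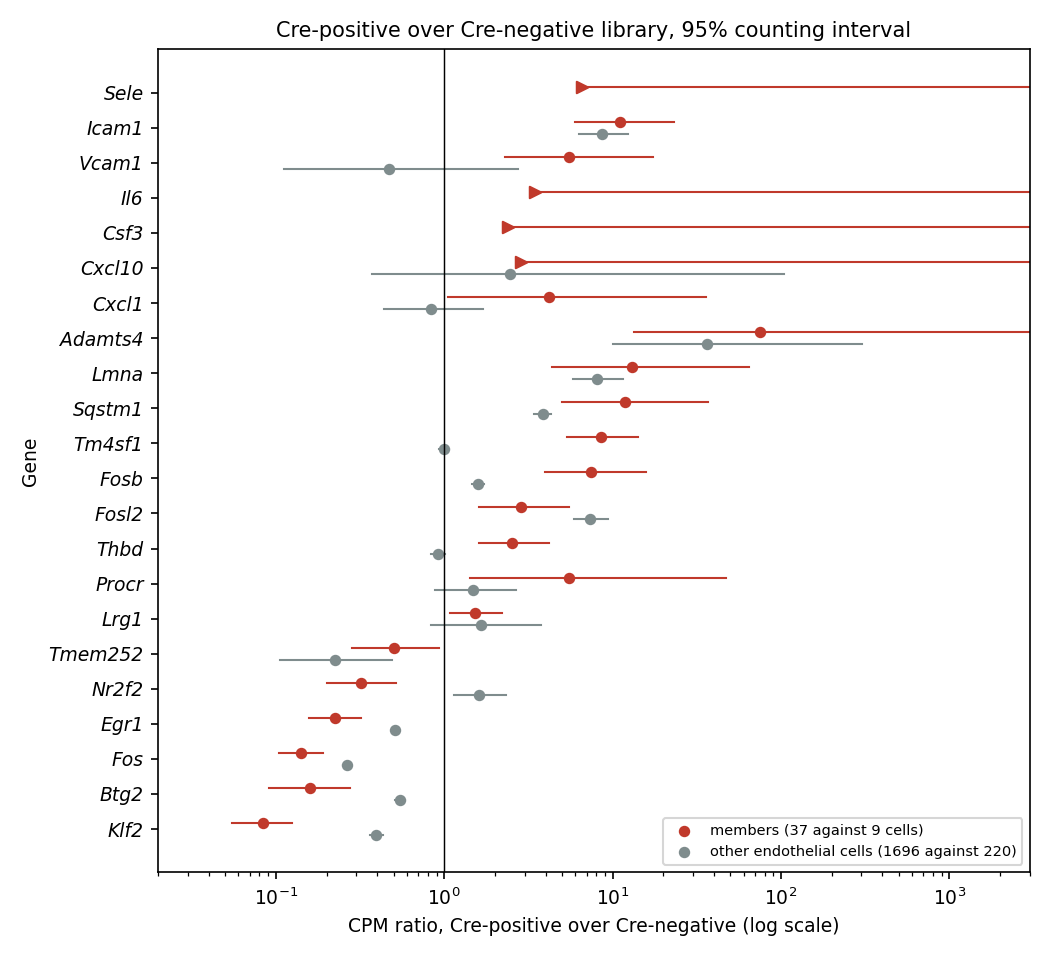
Ratio of CPM, Cre-positive over Cre-negative (log scale), for 22 genes in members (37 against 9 cells, red) and other endothelial cells (grey), with 95% counting intervals. Arrowheads mark bounds against 0 UMIs, and intervals past the right edge are clipped. Icam1 and Lmna lie right of 1 in both classes, Tm4sf1 in the members, and Klf2, Fos and Egr1 lie left of 1 in both.

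Interferon-stimulated genes were higher in the Cre-positive library among other endothelial cells, with 16 of 22 measured at least 2-fold higher and 0 lower (median log2 ratio 1.65). Over all genes measured in those cells, 263 of 2297 were at least 2-fold higher and 157 lower, with a median of -0.013. In the 37 cells the list gave 4 higher (Isg15, Stat2, Iigp1 and Gbp2) and 3 lower (Ifi44, Bst2 and Rtp4) of 16 measured, with a median of 0.23. Bst2, a tethering factor for enveloped viruses, had 99.2 CPM in Cre-positive and 222 CPM in Cre-negative members, and 467 and 104 CPM in other endothelial cells. The difference between the classes was not tested. Of the TET and DNMT list, 2 of 2 measured genes were lower, on 4 UMIs in each library for Dnmt3a and on 6 and 4 UMIs for Ogt.

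The comparison of IHG with control offspring could not be made for venous cells. The IHG library held 2 members with 7778 UMIs and the control library none, and both libraries had no cell with all 3 venous genes among 767 and 1049 endothelial cells. For such cells the exact 95% upper limit was 0.480% in IHG and 0.351% in control offspring.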

How the data were processed

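Islet cells of male mice were measured by 3′ single-cell RNA sequencing on a microwell platform, per the labels' protocols. The authors deposited 1 matrix of raw UMI counts per library over 32285 genes. Cell Ranger, Seurat and the mm10 build are named in the submitters' processing notes, without their roles or versions, and no label says which barcodes were filtered before deposit. The matrices were filtered as described above (Python 3.11.15). Members, marker lists and tests were chosen with earlier results of these data known. UMI counts were summed per library and cell class. Members were tested against other endothelial cells with edgeR 4.0.16 (quasi-likelihood test, TMM, library as block, adjusted p under 0.05), with DESeq2 1.42.0 as an alternative, and the fit was tested on simulated data. The block pairs the 2 classes of 1 library. Named genes are the 12 highest and 12 lowest log2 fold changes among called genes with 1 direction in the 3 libraries with members and at least 50 CPM in the higher class (11 higher qualified, and the 12 lowest are all given), and per list up to 4 genes by p. Between the Cre libraries they are the 8 highest and 8 lowest by the interval bound nearest 1 among genes past 2-fold, with the venous, adhesion, interferon and TET lists. Mitochondrial, ribosomal, Gm and Rik genes are counted, not named. Chosen outside this rule, after their values were seen, were Procr, Il6, Csf3, Cxcl10, Fosb, Fosl2 and Mki67, Vcam1 and Nr2f2 against other endothelial cells, and the split of the neuron-marker cells. Doublets were called per library with Scrublet in scanpy 1.11.5 and left in. Where the automatic call marked under 0.5% of cells (Cre-negative and control libraries), the top 6% by score were taken instead. A floor is 3 UMIs, and a bound set with it leaves out counting error in the other count. Coordinates of genes are from GENCODE vM21 on GRCm38. The p-values rest on 2 residual degrees of freedom (1 with all 3 venous genes) and on a spread that edgeR estimates with information shared over genes. The control library has no members and adds no pair. Very small p-values are therefore no measure of how well the spread between libraries is known, and cells of 1 library are not replicates.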

Additional observations from a re-analysis of the deposited data

How the results depend on the processing

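The test over all members called 88 genes, and the count rose to 406 (300 higher, 106 lower) with no filter on low counts, 242 with members that have all 3 venous genes, and 167 (83 higher, 84 lower) without the neuron-marker cells, an alternative added after the data were seen. Leaving out 1 library gave 15 to 642 calls. It was 15 without the Cre-positive, 642 without the Cre-negative, 158 without the IHG and 91 without the control library. DESeq2 (33 higher, 31 lower), no library block (63 higher, 64 lower), cells thinned to 2000 UMIs (33 and 33), a 1% hormone limit (35 and 75), comparators without any venous gene (27 and 58) and doublets out (28 and 62) kept the total within 1.5 times. By direction, no block moved the higher calls over 1.5 times, and DESeq2 and thinning moved the lower calls as much. Vamp1 reversed, to -0.90 with all 3 venous genes and -0.12 without the neuron-marker cells, which held all its Cre-positive UMIs. With all 3 venous genes the share was 1.55% in the Cre-positive and 2.18% in the Cre-negative library. In cells thinned to 2000 UMIs the shares were 2.08% (19 of 913) and 2.21% (3 of 136, interval 0.457 to 6.31). The same cells before thinning gave 2.63% and 4.41%. On so few Cre-negative cells a change in the gap between the libraries cannot be told. The IHG share was 0% with all 3 or when thinned. Past 2-fold between the Cre libraries were 1699 genes, and 5143 at a minimum of 20 CPM. The comparison with arterial-marked cells was not run, since too few members were left in too few libraries, and the IHG alternatives gave no value because the control library had 0 members. The test paired the 2 cell classes within a library. Between the groups no paired analysis was possible because the labels give 1 library per group. Depth limits any gene under about 3 UMIs in 9 Cre-negative or 2 IHG cells.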
